A study of Mus musculus with 12 samples.

Results

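The histone lysine methylating and demethylating enzymes comprised 56 of the 19938 genes measured in mouse embryonic stem (ES) cells that lose Esrrb. They were taken by gene symbol, by a rule that uses no measured value: the Kdm, Kmt, Setd, Smyd, Ehmt, Suv39h, Nsd and Jmjd families, together with Dot1l, Setmar, Phf2, Phf8 and the subunits Ash2l, Wdr5, Rbbp5, Dpy30 and Men1, as far as a probe set carried that symbol alone. The Kdm5 and Kdm2 families are each given in part. Suv39h1 and Ash1l had no probe set of their own and were not analysed here. RNA came from Esrrb_R cells, the AINV15 Esrrb rescue clone, a line that expresses rtTA. In this line a short hairpin RNA depletes the endogenous Esrrb and a doxycycline (Dox) dependent copy of Esrrb replaces it. Day 0 cells were kept in 1 µg/ml Dox, and cells at days 1, 3 and 5 had been without Dox for that time, in serum and Lif on gelatin without feeder cells after maintenance on mouse embryonic fibroblasts. There were 3 arrays for each day, 12 in all. All days came from 1 rescue clone, and no arrays followed Dox removal or culture time alone, so that loss of Esrrb, loss of Dox and time cannot be told apart.

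Lysines on the tails of histones H3 and H4 carry up to a few methyl groups each, and the residue decides the reading of the mark. Methylation of H3K4 marks promoters and enhancers in use, H3K36 the bodies of transcribed genes, H3K9, H3K27 and H4K20 mostly silent chromatin. SET domain proteins and Dot1l add the groups, and either flavin-dependent oxidases (Kdm1a, Kdm1b) or JmjC dioxygenases remove them. In ES cells many promoters of developmental genes carry H3K4 and H3K27 methylation at the same time.

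Levels are log2 signals, which rank arrays within a gene and not genes against each other, and changes are log2 differences of day means with their standard errors (SE) from limma, called at a Benjamini-Hochberg adjusted p under 0.05 over all genes. Esrrb itself averaged 11.59 ± 0.05 in cells with Dox, and then 9.13 ± 0.04 after 1 day, 8.20 ± 0.14 after 3 days and 8.19 ± 0.08 after 5 days without it (SD, n = 3 arrays). Of 8 ES cell markers, 8 were lower at day 5 than at day 0, and their summed signal was 14.7 to 14.77 on the log2 scale at day 5 against 15.38 to 15.43 at day 0. Of 9 markers of dividing cells, 1 was higher and 0 lower at day 5, with sums between 14.69 and 14.79 on every array. Fibroblast markers followed another course: of 10 measured, 7 were lower and 1 higher at day 3, and 6 were higher at day 5 than at day 3. Their summed signal lay at 12.92 to 12.99 at day 0, 12.75 to 12.83 at day 1, 11.98 to 12.13 at day 3 and 12.79 to 13.06 at day 5, and Col1a1 and Col1a2 stood between 9.14 and 9.68 at days 0, 1 and 5. Vim, at 12.47 on every day 0 array, was the highest of these markers and weighs most in the sum. Of the 10, 3 lay under the dim floor described below. The part of these markers in the results was not tested, and in such bulk RNA fewer cells of a type and less RNA per cell cannot be told apart.

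At day 5, 29 of the 56 enzymes and subunits had changed, 11 higher and 18 lower (17.4% and 17.6% of all genes), and 27 were not called. Their share called, 51.8%, stood beside 35% of all genes, and beside 45.5% of the 13916 genes above the dim floor, the 95th percentile of olfactory receptor genes, under which only Kdm4d lay among the members. At day 3, 10 were higher and 8 lower (13.5% and 13.1% of all genes), 32.1% of the members against 26.6% of all genes and 34.8% of those above the floor. At day 1, 3 were higher and 6 lower (6.45% and 4.48% of all genes), 16.1% of the members against 10.9% and 14.7%. The arrays of the days compared did not overlap for 34 members at day 5 (42.8% of all genes), 28 at day 3 (39.3%) and 26 at day 1 (30.3%). The share called in either direction was thus above that of all genes at each day, and nearer that of the genes above the floor. By direction at day 5, 32.1% of the members were lower, against 22.2% of the genes above the floor, and 19.6% were higher, against 23.3%. These shares were not tested, and the median change of the members at day 5 was -0.04 beside -0.02 for all genes. Over the time course 35 of 56 changed by limma's F test, against 45.6% of all genes. Setd7 was the only member past 2-fold at any day, so that most of what follows is change of modest size. Of the calls against day 0, 23 of 29 at day 5, 10 of 18 at day 3 and 3 of 9 at day 1 (Jmjd6, Kdm3b and Smyd1) held whichever single array was left out. The day 5 calls that did not were those of Jmjd8, Kdm2a, Kdm7a, Kmt5a, Setd5 and Smyd4, and the day 3 calls those of Jmjd1c, Jmjd8, Kdm3b, Kdm4b, Kdm8, Setd2, Setd5 and Wdr5.

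**Figure D1:**
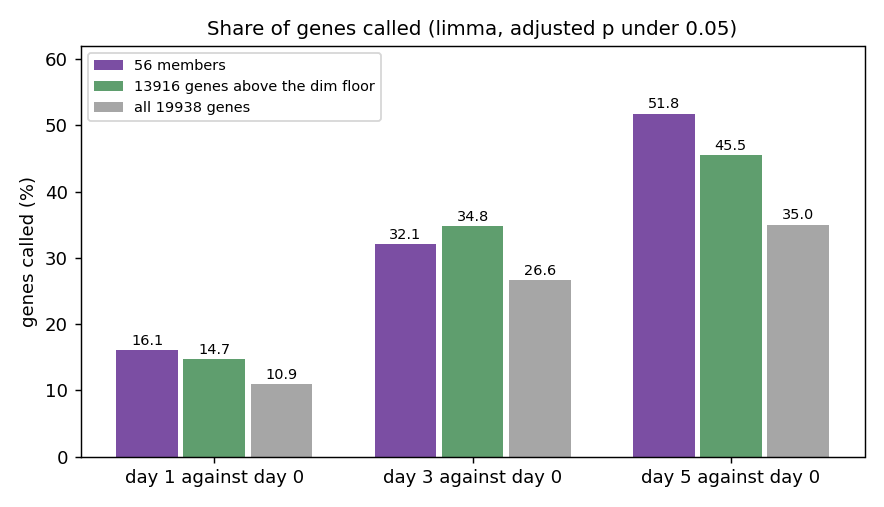
Percentage of genes called against day 0 at days 1, 3 and 5 (limma, adjusted p under 0.05) for the 56 members, the 13916 genes above the dim floor and all 19938 genes. At day 5 the bars stand at 51.8%, 45.5% and 35%, and at day 3 the members lie below the genes above the floor.

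**Figure D2:**
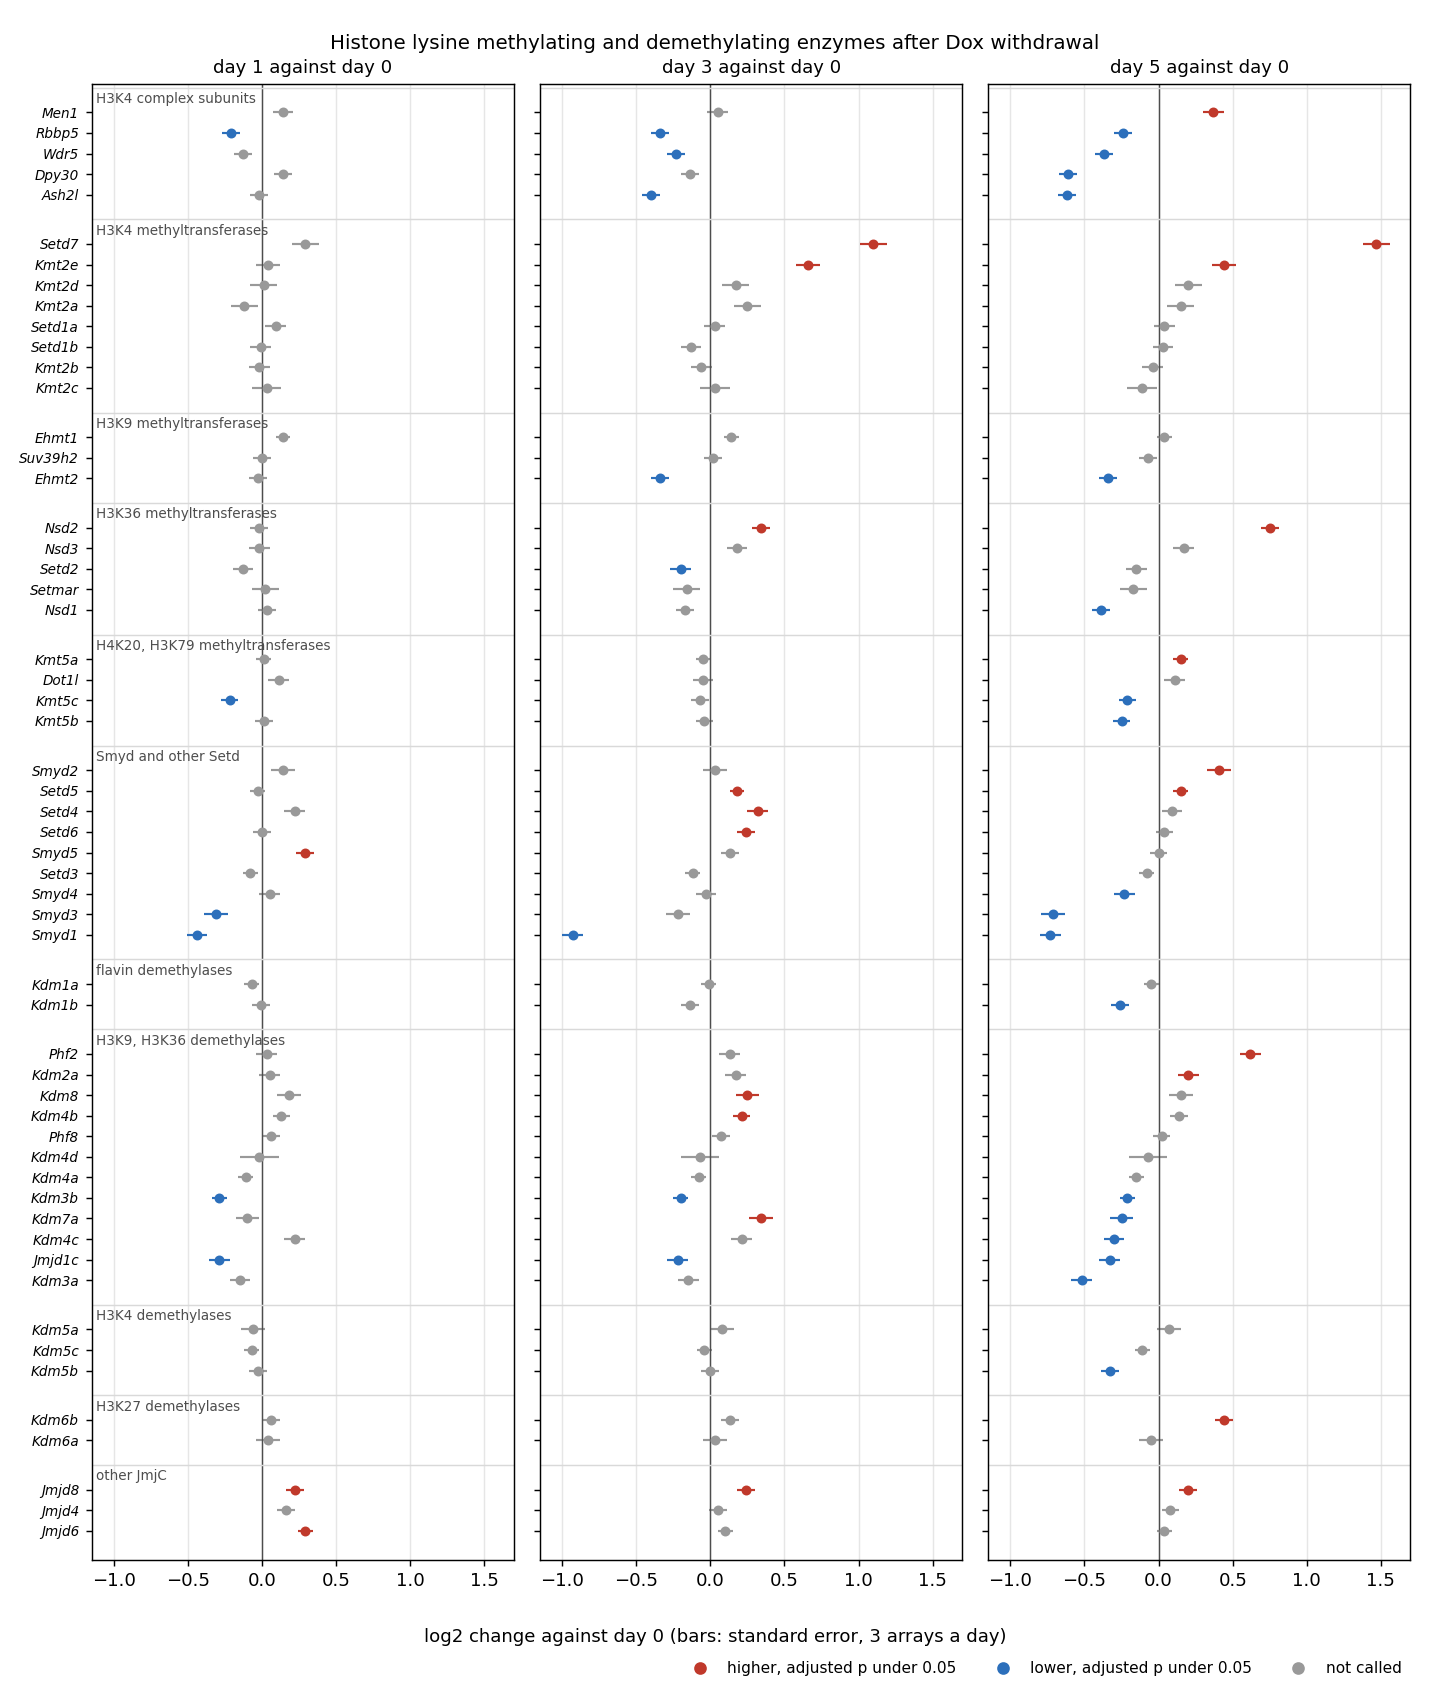
Log2 change of each of the 56 members against day 0 (horizontal axis, bars are SE, 3 arrays per day), one panel per day, grouped by role; red and blue points were called higher and lower, grey points were not called. Setd7 lies farthest to the right at days 3 and 5 (1.10 and 1.47), and 4 of 5 subunits of the H3K4 complexes lie to the left at day 5.

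The promoters of the members that rose most and fell most, Setd7 and Smyd1, differ in their CpG content. A relation of CpG content to the changes was not tested. Both promoters are shown from RefSeq (GRCm38.p6), 250 bases before to 50 after the start on the strand of the gene, with CG pairs in capitals. Setd7 (chr3:51560774-51561073, minus strand) held 21 CG pairs and Smyd1 (chr6:71262232-71262531, minus strand) held 3, beside a median of 7 over 32851 promoters of that length and of 26 over the 57 promoters of the 43 members that have one there.
Setd7: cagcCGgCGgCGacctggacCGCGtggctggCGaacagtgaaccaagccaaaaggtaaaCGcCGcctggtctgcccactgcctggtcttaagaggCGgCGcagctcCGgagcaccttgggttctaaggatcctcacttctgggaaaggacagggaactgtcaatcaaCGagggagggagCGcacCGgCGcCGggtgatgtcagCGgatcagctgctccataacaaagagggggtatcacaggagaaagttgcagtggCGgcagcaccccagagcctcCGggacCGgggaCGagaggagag
Smyd1: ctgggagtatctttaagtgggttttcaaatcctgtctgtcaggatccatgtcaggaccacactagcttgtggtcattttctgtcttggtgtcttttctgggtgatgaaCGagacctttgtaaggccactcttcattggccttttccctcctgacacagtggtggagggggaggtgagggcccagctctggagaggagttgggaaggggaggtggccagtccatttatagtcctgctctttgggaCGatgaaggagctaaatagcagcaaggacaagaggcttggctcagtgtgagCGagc
The letters AAGGTCA, the core of the motif that Esrrb binds, were searched on both strands of the same windows. They stood in 4.72% of all promoters and in 1 of the 57 promoters of members, that of Kdm6a. The match is shown in capitals on the strand of the gene, its first base 32 bases before the start (chrX:18162532-18162561), and the longer form TCAAGGTCA was in 0.423% of all promoters and in none of the members.
Kdm6a: gcgagtcaacaAAGGTCAcgtgaggcgagg
Kdm6a, an H3K27 demethylase, was not called at any day, and its day 5 change was -0.05 (95% interval -0.23 to 0.13). A window without the letters says only that they are not in those 300 bases, and a window with them is not a binding site.

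The subunits shared by the H3K4 methyltransferase complexes had the largest median change of the 11 roles at day 5. Ash2l, Wdr5, Rbbp5 and Dpy30 form the core on which Kmt2a, Kmt2b, Kmt2c, Kmt2d, Setd1a and Setd1b depend for activity. All 4 core subunits were lower at day 5. Men1, or menin, a subunit of the Kmt2a and Kmt2b complexes only, was higher. All 5 were thus called at day 5, beside 35% of all genes and 45.5% of those above the dim floor. The median change of the 5 went down over the days 1, 3 and 5, with -0.02, -0.23 and -0.37, beside 0.01, 0.00 and -0.02 for all genes.

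Ash2l signals were 12.18, 12.18 and 12.14 on the day 0 arrays, 12.18, 12.19 and 12.07 at day 1, 11.79, 11.76 and 11.75 at day 3, and 11.48, 11.59 and 11.57 at day 5. Days 0 and 1 thus overlapped while every later array lay below them, and day 5 lay below day 3. The change was -0.40 at day 3 (SE 0.06, limma adjusted p = 0.00013) and -0.62 at day 5 (SE 0.06, adjusted p = 1.5e-06), or 1.54-fold lower. Dpy30, which binds the Ash2l tail, had 11.86, 11.91 and 11.91 at day 0, 12.02, 11.99 and 12.10 at day 1, 11.79, 11.78 and 11.69 at day 3, and 11.37, 11.22 and 11.26 at day 5. Its arrays were separate on all days and the fall came late: the change was 0.14 at day 1 (adjusted p = 0.15), -0.14 at day 3 (adjusted p = 0.11) and -0.61 at day 5 (SE 0.06, adjusted p = 3.2e-06). Between days 3 and 5 alone Dpy30 fell by 0.47 on the log2 scale (adjusted p = 7.8e-05).

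Wdr5, the histone-tail reader of the core, had 10, 9.82 and 9.98 at day 5 against 10.26, 10.36 and 10.29 at day 0. These arrays did not overlap, and the change was -0.37 (SE 0.06, adjusted p = 0.00043). Rbbp5 differed in timing, as it was already lower at day 1 (-0.21, adjusted p = 0.035), lowest at day 3 (-0.34, adjusted p = 0.00068) and at -0.24 at day 5 (adjusted p = 0.0044). Its day 1 call was lost without any one of the 6 day 0 and day 1 arrays except replicate 3 of day 0, with adjusted p up to 0.13. Men1 had 10.07, 10.02 and 10.23 at day 5 against 9.67, 9.75 and 9.78 at day 0, all higher, and rose by 0.37 (SE 0.07, adjusted p = 0.00056), of which 0.32 came between days 3 and 5.

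**Figure D3:**
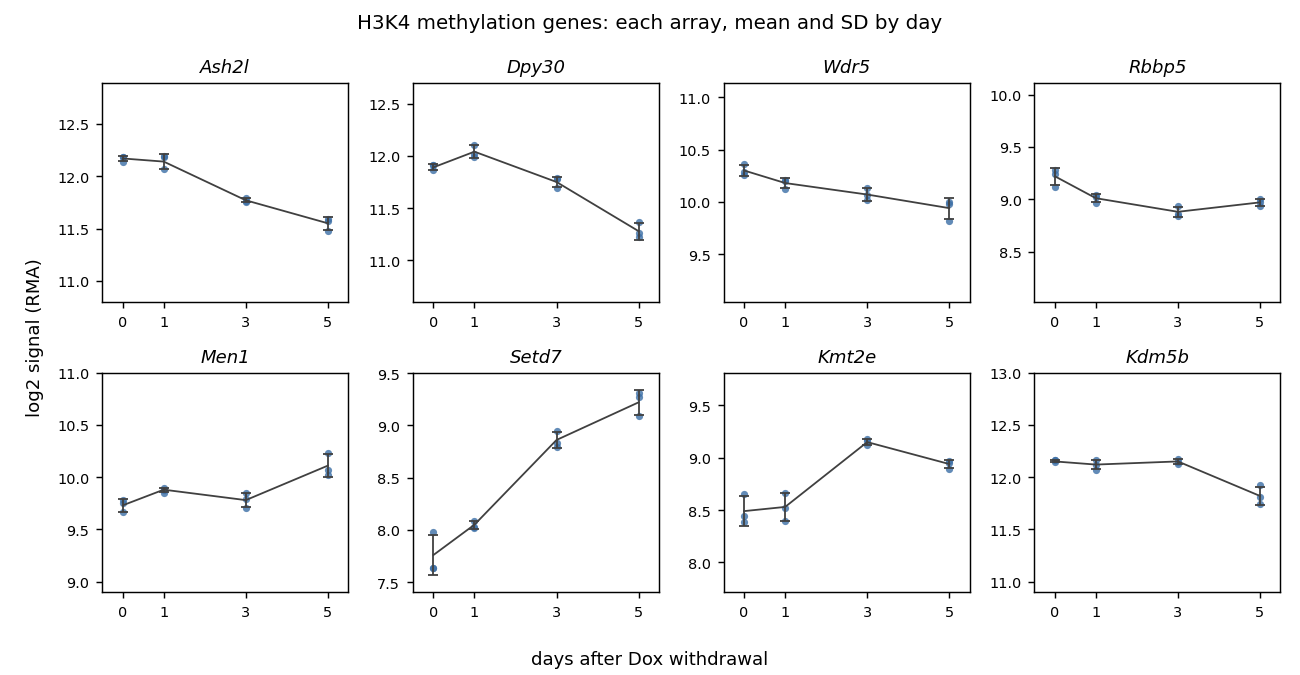
Log2 signal (vertical axis, equal span in each panel) by day after Dox withdrawal for 8 genes of H3K4 methylation; points are arrays, and the line and bars are the mean and SD of 3 arrays. Ash2l, Dpy30, Wdr5 and Rbbp5 end lower, and Men1, Setd7 and Kmt2e end higher, than at day 0, while Kdm5b fell only after day 3.

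Of the 8 members grouped as H3K4 methyltransferases, 2 were higher at day 5 and none was lower, 25% called beside 35% of all genes. The 2 that rose were Setd7 and Kmt2e, neither of which works through the Ash2l core. Setd7, which places a single methyl group on H3K4 and on many non-histone proteins, had 7.64, 7.98 and 7.64 at day 0, 8.09, 8.03 and 8.02 at day 1, 8.95, 8.79 and 8.83 at day 3, and 9.31, 9.09 and 9.27 at day 5. Every day lay above the one before it on all arrays. The change was 0.29 at day 1 (SE 0.09, adjusted p = 0.059), 1.10 at day 3 (adjusted p = 1.5e-06) and 1.47 at day 5 (adjusted p = 6.3e-08), or 2.77-fold. Replicate 2 of day 0 was the highest of that day, and without it the day 1 change was 0.40 (adjusted p = 0.0073).

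Kmt2e, a SET and PHD finger protein with little known methylating activity, had 8.65, 8.44 and 8.39 at day 0, 8.66, 8.52 and 8.40 at day 1, 9.12, 9.16 and 9.18 at day 3, and 8.89, 8.95 and 8.97 at day 5. Days 0 and 1 overlapped and the later ones stood clear above them. It was 0.66 higher at day 3 (SE 0.08, adjusted p = 3.8e-05) and 0.44 higher at day 5 (adjusted p = 0.00059), and the step between those days, -0.22, did not pass (adjusted p = 0.063). Kmt2a, Kmt2b, Kmt2c, Kmt2d, Setd1a and Setd1b, the enzymes that do use the core, were not called at any day against day 0. Their day 5 changes ran between -0.11 for Kmt2c (95% interval -0.33 to 0.11) and 0.20 for Kmt2d (95% interval 0.01 to 0.39, before adjustment). Kmt2a came nearest, at 0.25 on day 3 (adjusted p = 0.052), and was higher at day 3 than at day 1 (0.38, adjusted p = 0.0085).

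Among the H3K4 demethylases Kdm5b, which is abundant in ES cells, was called and Kdm5a and Kdm5c were not. Kdm5b had 12.16, 12.16 and 12.14 at day 0, 12.12, 12.16 and 12.07 at day 1, 12.14, 12.17 and 12.13 at day 3, and 11.74, 11.92 and 11.81 at day 5. The 3 earlier days overlapped and only day 5 lay apart. The change was -0.33 at day 5 (SE 0.06, adjusted p = 0.00044) and 0.00 at day 3 (95% interval -0.12 to 0.12).

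Genes that partner the H3K4 enzymes without belonging to the core were called less often than all genes only at day 5. Their shares called for days 1, 3 and 5 in turn were 25%, 37.5% and 12.5%, beside 10.9%, 26.6% and 35% of all genes. These shares rest on 8 genes and were not tested. Of 8 in a list of such partners, 2 were higher at day 1, 1 higher and 2 lower at day 3, and 1 lower at day 5. That one was Wdr82, a subunit of the Setd1 complexes, at -0.23 (adjusted p = 0.0025). Cxxc1, their CpG-binding subunit, was called at day 1 only (0.26, adjusted p = 0.046). Ncoa6, a subunit of the Kmt2c and Kmt2d complexes, was 0.41 higher at day 5 than at day 3 (adjusted p = 0.00089).

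H3K9 methyltransferases changed in 1 of 3, or 33.3% called at day 5 beside 35% of all genes. Ehmt2, or G9a, which with Ehmt1 makes most mono- and dimethyl H3K9 of euchromatin, had 10.38, 10.38 and 10.48 at day 0, 10.38, 10.37 and 10.39 at day 1, 10.11, 10.10 and 10.02 at day 3, and 10.03, 10.02 and 10.15 at day 5. It stepped down between days 1 and 3 and days 3 and 5 overlapped. The change was -0.34 at day 3 (SE 0.06, adjusted p = 0.00059) and -0.34 at day 5 (SE 0.06, adjusted p = 0.00035). Its partner Ehmt1 was not called and stood at 0.04 at day 5 (95% interval -0.07 to 0.15), and Suv39h2, of pericentric heterochromatin, at -0.07 (95% interval -0.19 to 0.05). In the list of further lysine methyltransferases, 0 of 7 were higher and 3 lower at day 5, among them the H3K9 enzymes Setdb1 (-0.20, adjusted p = 0.014) and Setdb2 (-0.30, adjusted p = 0.0096). That list had 42.9% called at day 5, beside 35% of all genes and 45.5% of those above the dim floor.

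Of 5 H3K36 methyltransferases, related Nsd enzymes went opposite ways. Nsd2, which makes dimethyl H3K36, had 9.75, 9.71 and 9.68 at day 0, 9.63, 9.71 and 9.72 at day 1, 10.08, 10 and 10.09 at day 3, and 10.48, 10.36 and 10.55 at day 5. It climbed without overlap after day 1, by 0.34 at day 3 (SE 0.06, adjusted p = 0.00076) and 0.75 at day 5 (SE 0.06, adjusted p = 5.3e-07), or 1.68-fold. Nsd1, which makes the same mark, had 10.87, 11.06 and 10.95 at day 5 against 11.44, 11.31 and 11.31 at day 0. All day 5 arrays were lower and the change was -0.39 (SE 0.06, adjusted p = 0.0003). Nsd3 was not called (0.17, adjusted p = 0.075). Setd2, the trimethylating enzyme, was called at day 3 alone (-0.20, adjusted p = 0.042), with overlapping arrays, and Setmar at no day.

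H4K20 and H3K79 methylation gave small changes. Of 4 genes, 1 was higher and 2 lower at day 5, 75% called beside 35% of all genes and 45.5% of those above the dim floor. Kmt5b, which with Kmt5c makes di- and trimethyl H4K20, had 9.11, 8.97 and 9.03 at day 0, 9.03, 9.08 and 9.03 at day 1, 9.01, 9.05 and 8.93 at day 3, and 8.73, 8.88 and 8.75 at day 5. Only day 5 stood apart, at -0.25 (SE 0.06, adjusted p = 0.0056). Kmt5c was lower at day 1 (-0.22, adjusted p = 0.028) and day 5 (-0.21, adjusted p = 0.01). Kmt5a, which makes monomethyl H4K20 in dividing cells, rose by 0.15 at day 5 (adjusted p = 0.041), a call lost without any one of 10 of the 12 arrays. Dot1l, the H3K79 enzyme, was not called (0.11 at day 5, 95% interval -0.04 to 0.26).

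The Smyd family held the members that fell most. Smyd1, best known from heart and skeletal muscle, had 6.94, 6.90 and 7.01 at day 0, 6.45, 6.48 and 6.59 at day 1, 6.04, 6.08 and 5.95 at day 3, and 6.14, 6.19 and 6.33 at day 5. No 2 days overlapped, and it was lower by the first day without Dox. The change was -0.44 at day 1 (SE 0.07, adjusted p = 0.00094), -0.93 at day 3 (adjusted p = 4.4e-07) and -0.73 at day 5 (adjusted p = 1.8e-06). The means of 6.02 at day 3 and 6.22 at day 5 both lay under the dim floor of 6.285, so that the changes at these days say that Smyd1 was lower but not well by how much.

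Smyd3, a cytoplasmic and nuclear methyltransferase, had 9.44, 9.46 and 9.42 at day 0, 9.19, 9.20 and 9.0 at day 1, 9.25, 9.12 and 9.29 at day 3, and 8.63, 8.87 and 8.68 at day 5. It was lower by day 1 and fell again by 0.49 on the log2 scale between days 3 and 5 (adjusted p = 0.00045). Against day 0 the change was -0.31 at day 1 (SE 0.08, adjusted p = 0.022), -0.22 at day 3 (adjusted p = 0.054) and -0.71 at day 5 (SE 0.08, adjusted p = 9.5e-06). Without replicate 1 or 2 of day 0, or replicate 3 of day 1, the day 1 call was lost, with adjusted p up to 0.1. Smyd2, which methylates p53 among other proteins, went the other way, with 9.50, 9.29 and 9.55 at day 5 against 8.99, 9.11 and 9.0 at day 0, all higher (0.41, adjusted p = 0.00091). Smyd4 was lower at day 5 (-0.23, adjusted p = 0.02) and Smyd5 higher at day 1 only (0.29, adjusted p = 0.011), a call lost without replicate 2 of day 1 (adjusted p = 0.053).

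Of the remaining Setd proteins, 3 were higher at day 3 (13.5% of all genes). Setd4 had 7.61, 7.73 and 7.74 at day 0, 7.96, 7.79 and 7.98 at day 1, 8.10, 7.96 and 8.0 at day 3, and 7.88, 7.71 and 7.77 at day 5, so that days 0 and 5 overlapped and day 3 lay above both. It was 0.32 higher at day 3 than at day 0 (SE 0.07, adjusted p = 0.004) and 0.23 lower at day 5 than at day 3 (adjusted p = 0.028). The day 1 arrays of Setd4 already lay above day 0 (0.22, adjusted p = 0.072). They overlapped those of day 3, and the step between days 1 and 3 was 0.11 (adjusted p = 0.34). Setd6, which methylates the NF-kB subunit RelA, had 10.38, 10.48 and 10.47 at day 0, 10.43, 10.40 and 10.50 at day 1, 10.69, 10.64 and 10.72 at day 3, and 10.51, 10.41 and 10.53 at day 5. Only day 3 stood apart, at 0.24 (SE 0.06, adjusted p = 0.0064), and day 5 was 0.20 below it (adjusted p = 0.018). Setd5 was higher at days 3 (0.18, adjusted p = 0.02) and 5 (0.15, adjusted p = 0.046), and Setd3, an actin histidine methyltransferase, was not called.

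Of the flavin-dependent demethylases, Kdm1a (LSD1), an eraser of H3K4 methylation that enhancers of ES cells are known to need when they are shut down, was not called. It averaged 11.64 ± 0.06 at day 5 and 11.69 ± 0.03 at day 0 (SD, n = 3), a difference of -0.05 (95% interval -0.17 to 0.06). Kdm1b, its relative, had 8.24, 8.19 and 8.16 at day 0, 8.12, 8.15 and 8.29 at day 1, 8.07, 8.01 and 8.10 at day 3, and 7.98, 7.91 and 7.93 at day 5. Its arrays of days 0 and 5 did not overlap and the change was -0.26 (SE 0.06, adjusted p = 0.0036). Among the corepressor partners of Kdm1a, 1 of 11 was higher and 2 lower at day 5, 27.3% called beside 35% of all genes. The scaffold Rcor1 had 10.16, 10.29 and 10.35 at day 5 against 9.66, 9.59 and 9.62 at day 0 (0.64, adjusted p = 8.7e-06). Rcor2, the relative known as the abundant one of ES cells, had 9.39, 9.21 and 9.31 at day 5 against 9.73, 9.70 and 9.67 at day 0 (-0.40, adjusted p = 0.00052). Neither pair overlapped.

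The 12 JmjC demethylases of H3K9 and H3K36 made up the largest role, with 2 higher and 5 lower at day 5 and a median of -0.11. That is 58.3% called, beside 35% of all genes and 45.5% of those above the dim floor. Kdm3a, an eraser of mono- and dimethyl H3K9 that is known as a target of Oct4 in mouse ES cells, had 10.84, 10.80 and 10.67 at day 0, 10.61, 10.67 and 10.58 at day 1, 10.70, 10.63 and 10.55 at day 3, and 10.17, 10.30 and 10.31 at day 5. Days 0, 1 and 3 overlapped and day 5 lay below all, at -0.52 (SE 0.07, adjusted p = 3.9e-05). Its relatives Kdm3b and Jmjd1c were lower from day 1 on. Kdm3b changed by -0.29, -0.20 and -0.21 at days 1, 3 and 5 (adjusted p = 0.0042, 0.014 and 0.0085), and Jmjd1c by -0.29, -0.22 and -0.33 (adjusted p = 0.017, 0.034 and 0.0024). The Jmjd1c calls at days 1 and 3 were lost in 3 and 5 of the fits that left out 1 array. The Kdm3b call at day 3 was lost in 2. Of the 2 Jmjd1c probe sets, 1 was not called at days 1 and 3 (limma adjusted p = 0.12 and 0.17 over all probe sets). All 3 Kdm3-type enzymes were thus lower at day 5, as were 17.6% of all genes and 22.2% of those above the dim floor. These 3 were set apart by family within the role of 12, and their share was not tested.

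Kdm4c, an eraser of trimethyl H3K9 and likewise a known Oct4 target, had 11.22, 11.13 and 11.08 at day 0, 11.39, 11.36 and 11.32 at day 1, 11.39, 11.34 and 11.33 at day 3, and 10.66, 10.98 and 10.88 at day 5. Days 1 and 3 lay above day 0 on every array (0.22, adjusted p = 0.09, and 0.21, adjusted p = 0.052) and day 5 lay below it (-0.30, SE 0.07, adjusted p = 0.007). From day 3 to day 5 Kdm4c fell by 0.51 on the log2 scale (adjusted p = 0.00026). Kdm4b was higher at day 3 only (0.21, adjusted p = 0.015), Kdm4a was not called (-0.15 at day 5, adjusted p = 0.052), and Kdm4d, a testis gene, lay under the dim floor.

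Kdm7a, an eraser of dimethyl H3K9 and H3K27, was highest at day 3. It had 9.13, 9.02 and 8.95 at day 0, 8.98, 8.94 and 8.90 at day 1, 9.39, 9.36 and 9.38 at day 3, and 8.57, 8.92 and 8.84 at day 5. It was 0.34 higher at day 3 than at day 0 (SE 0.08, adjusted p = 0.0068), 0.25 lower at day 5 than at day 0 (adjusted p = 0.027) and 0.60 lower at day 5 than at day 3 (SE 0.08, adjusted p = 0.00015). The day 5 call against day 0 was lost without replicate 1 or 2 of day 0 or replicate 1 of day 5, with adjusted p up to 0.11. Phf2, a PHD finger protein of the same subfamily, went the other way, with 7.53, 7.54 and 7.56 at day 0, 7.48, 7.64 and 7.60 at day 1, 7.67, 7.68 and 7.65 at day 3, and 8.14, 8.06 and 8.29 at day 5. Days 0 and 1 overlapped and day 5 lay above all others, 0.50 above day 3 (adjusted p = 0.00012). At day 5 it was 0.62 higher (SE 0.07, adjusted p = 7e-06), or 1.54-fold. Phf8, the third of the subfamily, was not called (0.02 at day 5, 95% interval -0.12 to 0.16). Kdm2a was higher at day 5 (0.20, adjusted p = 0.031) and Kdm8 at day 3 (0.25, adjusted p = 0.041). These calls were lost in 4 and 8 of the fits that left out 1 array.

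Of the H3K27 demethylases, Kdm6b was called and Kdm6a was not. Kdm6b, or Jmjd3, known as the inducible enzyme of the pair, had 8.72, 8.77 and 8.78 at day 0, 8.81, 8.80 and 8.84 at day 1, 8.84, 8.93 and 8.87 at day 3, and 9.17, 9.08 and 9.34 at day 5. Day 5 lay above all other days, and the change was 0.44 (SE 0.06, adjusted p = 0.00013), of which 0.31 came after day 3. Of the other JmjC proteins, Jmjd6, a hydroxylase of splicing factors, had 9.25, 9.34 and 9.40 at day 0, 9.66, 9.62 and 9.59 at day 1, 9.47, 9.39 and 9.44 at day 3, and 9.36, 9.41 and 9.36 at day 5. Its rise was confined to day 1 among the calls against day 0 (0.29, SE 0.05, adjusted p = 0.0042). Jmjd8 was called higher at all 3 days (0.22, 0.24 and 0.20, adjusted p = 0.041, 0.014 and 0.027) and Jmjd4 at none. The Jmjd8 calls were lost in 7, 2 and 3 of the fits that left out 1 array. In the list of further JmjC proteins, 2 of 5 were lower at day 5. That is 40% called, beside 35% of all genes and 45.5% of those above the dim floor. They were Uty (-0.39, adjusted p = 0.0032) and Jarid2, a cofactor of the H3K27 methylating complex PRC2 without demethylase activity. Jarid2 had 11.45, 11.65 and 11.56 at day 5 against 12.20, 12.16 and 12.08 at day 0 (-0.59, adjusted p = 5.4e-06).

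**Figure D4:**
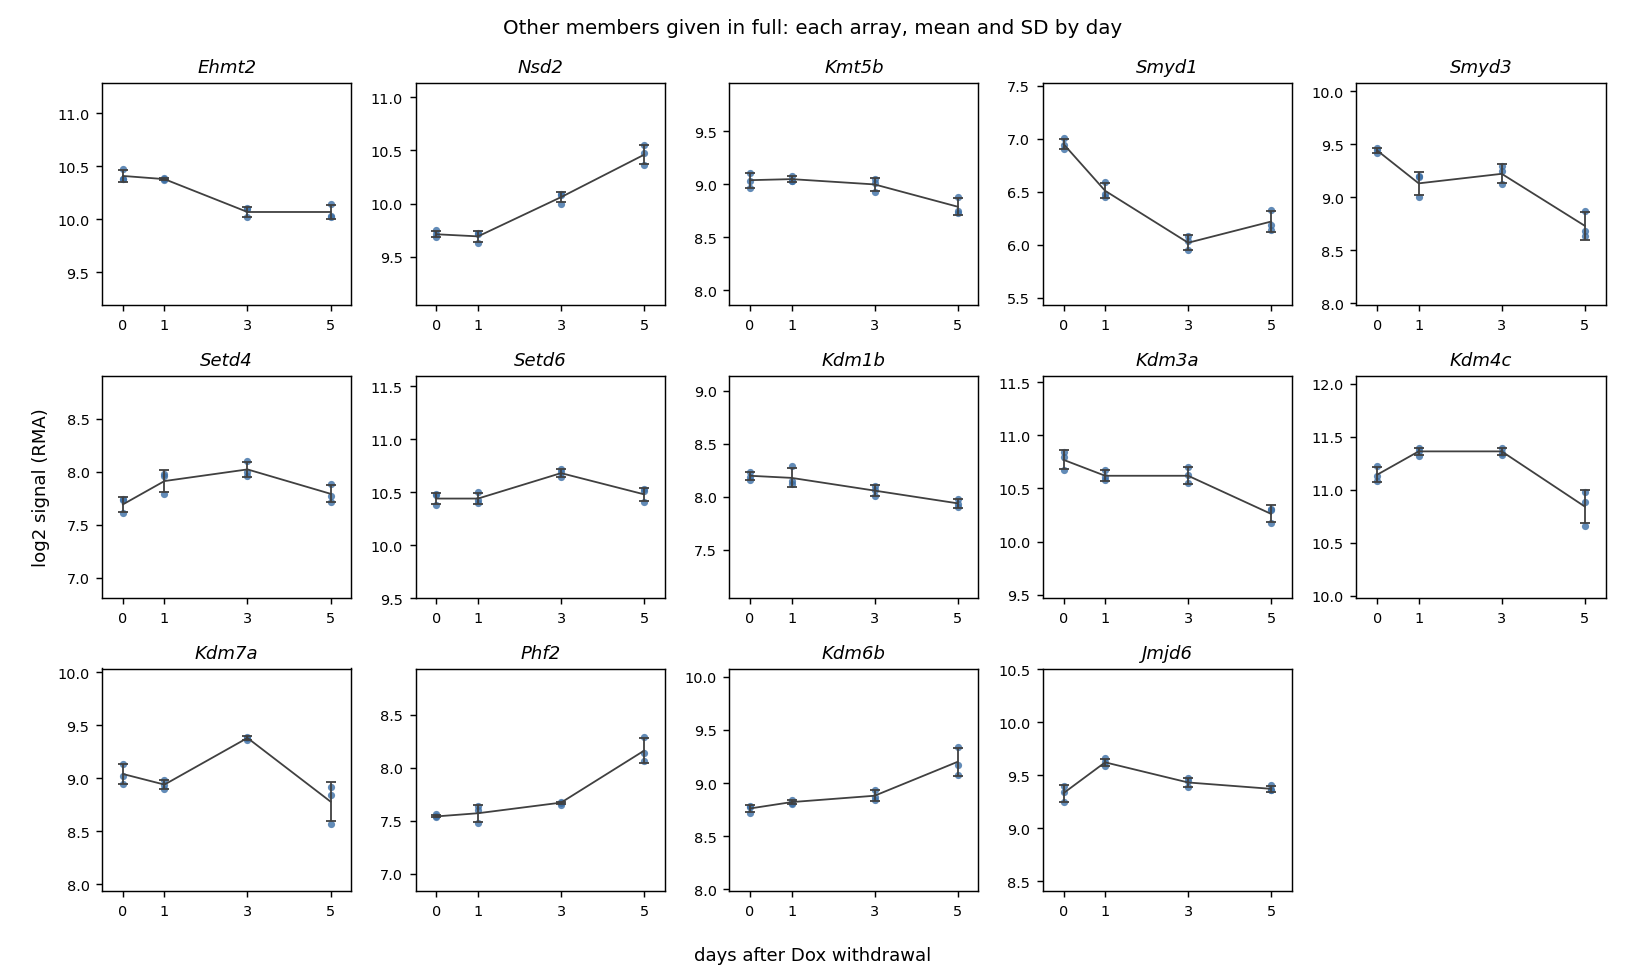
Log2 signal (vertical axis, equal span in each panel) by day after Dox withdrawal for 14 further members; points are arrays, and the line and bars are the mean and SD of 3 arrays. Nsd2, Phf2 and Kdm6b end above day 0 and Smyd1, Smyd3 and Kdm3a below it. The means of Setd4, Setd6 and Kdm7a were highest at day 3 and that of Jmjd6 at day 1, and Setd4 arrays of days 1 and 3 overlapped.

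Seen by timing, 20 of the 56 were called at no day, 35.7% beside 54.9% of all genes and 41.8% of those above the floor. At all 3 days against day 0, 5 were called, each in the same direction, 8.93% beside 5.34% and 7.18%. They were Jmjd8, higher, and Jmjd1c, Kdm3b, Rbbp5 and Smyd1, lower. Smyd1 alone kept all 3 calls whichever single array was left out. Called at day 5 alone were 6 that were higher, 10.7% of the members beside 7.68% of all genes and 9.95% of those above the floor (Kdm2a, Kdm6b, Kmt5a, Men1, Phf2 and Smyd2), and 8 that were lower, 14.3% of the members beside 7.4% and 8.94% (Dpy30, Kdm1b, Kdm3a, Kdm4c, Kdm5b, Kmt5b, Nsd1 and Smyd4). Between days 3 and 5, 8 members rose and 12 fell, beside 13% and 12.2% of all genes, or 25.3% in either direction, and the arrays of 31 did not overlap (38.9% of all genes). Between days 1 and 3, 7 rose and 6 fell, beside 9.2% and 11.6% of all genes, or 20.8% in either direction, and the arrays of 26 did not overlap (40.4%). The 4 members whose change turned after day 3 (Kdm7a, Setd4, Setd6 and Smyd1) stand beside 7.39% of all genes that did so, and for Smyd1 both means of that step lay under the dim floor. Most fibroblast markers turned at the same day. Of 10, 7 were lower at day 3 than at day 0, and 6 were higher at day 5 than at day 3. Thy1 went the other way, with 0.37 at day 3 and -0.65 between days 3 and 5. Of the 4 members, Kdm7a, Setd4 and Setd6 rose and then fell, opposite to most of these markers, and Smyd1 fell first. The part of the markers in these 4 results was not tested. The 95% intervals of the day 5 changes of the 20 members with no call all lay between -0.37 and 0.39.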

How the data were processed

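Total RNA of 12 Esrrb_R cultures (3 biological replicates, per the study's methods, at each of days 0, 1, 3 and 5 without Dox) was hybridized to Affymetrix Mouse Gene ST arrays. The authors normalized the arrays with RMA in Expression Console, whose version the sources used here do not name, and deposited log2 values per probe set, from 1.61 to 14.69. Of 35557 probe sets, 21789 carried 1 symbol in the platform annotation, 1621 several and 12147 none, and a gene was the mean of its single-symbol probe sets (50 members had 1 and 6 had several). All 56 members matched the RefSeq gene table. Day means were fitted in 1 limma model (limma 3.58.1, R 4.3.3) with Benjamini-Hochberg adjustment over 19938 genes and two-sided tests. The dim floor was the 95th percentile of 1027 olfactory receptor genes. Tables and figures used Python 3.11.15. The model was tested on simulated data. Members and lists were chosen with earlier results of these data known. Every member could be named. Given in full were the 12 members with the smallest F test p, the member of each role with the largest change, and those that turned. Alternatives were the replicate block, other summaries of probe sets, a filter on dim genes, other variance models, array weights, quantile normalization, median centring, fits of 2 days, each array left out, and the analysis of variance of the methods. Scan batches were not known, and p-values measure the spread between these samples. Intervals of 95% come from the moderated SE and are not adjusted for the number of genes.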

Additional observations from a re-analysis of the deposited data

Results flagged for a closer look

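In 4 members the change after day 3 ran against the direction of the change up to day 3, and limma called both steps. Kdm7a changed by -0.60 between days 3 and 5, and this step kept its call under every alternative run, with adjusted p up to 0.002. Setd4 changed by -0.23, a call lost in 4 of the fits that left out 1 array and with median centring, with adjusted p up to 0.11. Setd6 changed by -0.20, a call lost in 3 such fits, with median centring and with a fit of the 2 days only, with adjusted p up to 0.069. Smyd1 changed by 0.20, a call lost in 8 such fits, with the replicate block, with the trended robust variance and with a fit of the 2 days only, with adjusted p up to 0.18. Both Smyd1 means of this step, 6.22 at day 5 and 6.02 at day 3, lay under the dim floor of 6.285, so that this step is no measure of a turn.

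A probe set that names Jmjd7 together with Gm28042 and Pla2g4b, and so stood outside the gene table, was 0.25 higher at day 3 than at day 0 (limma adjusted p = 0.0094 over all probe sets), while its day 5 change was -0.02. Which of the 3 genes it measured cannot be told apart.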

How the results depend on the processing

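Day 1 counts depended most on the settings. Members higher at day 1 (3) became 7 without dim genes, 7 with a trended robust variance and 6 with array weights, and members lower at day 1 (6) became 3 in a fit of the 2 days only. Members higher at day 5 (11) became 7 in a fit of the 2 days only. Of the 35 members that changed over the time course, 1 (Setd7) passed the methods' analysis of variance with Bonferroni correction and a total change over 2-fold, as 2.11% of all genes did. Leaving out each array in turn gave 2 to 4 higher and 2 to 6 lower members at day 1, 7 to 12 higher and 4 to 9 lower at day 3, and 7 to 11 higher and 16 to 20 lower at day 5. The members lower at day 1 were 3 without replicate 1 or 2 of day 0 or replicate 1 of day 1 and 2 without replicate 3 of day 1. The members lower at day 3 were 5 without replicate 1 or 2 of day 0 and 4 without replicate 1 of day 3, and the members higher at day 5 were 7 without replicate 3 of day 5. The median of the shared H3K4 subunits at day 5 was -0.31 without replicate 2 of day 5. Among the changes of the members given in full, no called value turned its sign under any alternative. Replicate numbers did not pair the arrays, since same-numbered arrays had correlations of their deviations between -0.17 and 0.071. With the replicate number as a block, 2 members were higher and 5 lower at day 1, 9 and 7 at day 3, and 8 and 18 at day 5. The number of arrays, and signals near background for Kdm4d and Smyd1, limit the precision.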
